A study of Mus musculus with 6 samples.

Results

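Small nuclear and nucleolar RNAs were followed in the kidneys of cisplatin-treated mice. The members were chosen by 2 columns of the deposited gene count table: an annotated biotype of snRNA, snoRNA or scaRNA, and at least 10 raw reads summed over the 6 libraries. Of 54532 genes in the table, 2943 carried 1 of these biotypes and 140 of them were members, namely 83 snoRNAs, 49 snRNAs and 8 scaRNAs. The read total that selected them is a description of the members and supports nothing below.

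RNA-sequencing compared kidney tissue of 3 WT mice (libraries WT1, WT2 and WT3) with that of 3 Trpm2-/- mice (KO1, KO2 and KO4), all taken 72 h after 18 mg/kg cisplatin, a platinum drug that injures the renal tubule. The mice were C57BL/6 males, 6 to 8 weeks old per the labels, whereas the methods of the study state an older range. The Trpm2-/- allele lacks a pair of exons and gives no functional TRPM2, a cation channel opened by oxidative stress, in any cell of the animal. Every mouse received cisplatin, so the comparison is between the 2 groups after injury and does not show the effect of the drug. The methods of the study state that the WT mice were bought from a supplier, whereas the Trpm2-/- mice came from a university. Genotype and origin of the mice therefore cannot be told apart in any difference below. The sources used here do not say how the mice were drawn from litters or days, so p-values measure only the spread between these mice.

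As background, snRNAs are the RNA parts of the spliceosome, where U6 and U2 form the catalytic core and U1 marks the start of an intron, and the U7 snRNA serves the 3′ end of histone messages. snoRNAs guide chemical marks on ribosomal RNA in the nucleolus, with box C/D snoRNAs directing 2′-O-methylation and box H/ACA snoRNAs directing pseudouridylation. scaRNAs do the same for snRNAs in Cajal bodies. Most mouse snoRNAs are trimmed out of the spliced introns of host genes, and mature RNAs of these classes have no poly(A) tail, while the genome also holds many diverged snRNA copies.

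The targeted gene had 5, 5 and 27 reads in WT and 10, 16 and 20 in Trpm2-/- libraries, which checks no label because the counts cover the whole gene and not the deleted exons. The members were a small fraction of each library. Libraries held between 14053307 and 17150089 counts, of which the members took from 0.00523% in WT2 to 0.00813% in KO4. A count of 0 in a library allows up to 3 reads, or 0.175 to 0.213 CPM (counts scaled to a common library size), and these limits cover counting error only. The tissue carried its nephron markers, and 6 of 10 kidney markers fell at an adjusted p under 0.05 in Trpm2-/- kidneys, among them the proximal tubule transporters Slc34a1 (log2 fold change −2.73 ± 0.399 (SE), adjusted p = 0.00391, edgeR) and Slc5a2 (−1.24 ± 0.183, adjusted p = 0.00402, edgeR), the endocytic receptor genes Cubn (−1.39) and Lrp2 (−0.76) and the collecting duct water channel Aqp2 (−1.02). In bulk kidney, fewer cells of a type and less RNA per cell cannot be told apart. Of 12 blood and immune markers, 5 were tested and 0 passed in edgeR or DESeq2 (1 had an unadjusted p under 0.05 in edgeR), and the neuron markers had summed levels of at most 0.428 CPM in any library, with Snap25 at 0 in all. Mitochondrial ribosomal RNA, from 2 genes, was at 2600 to 2980 CPM in WT and 5220 to 7510 CPM in Trpm2-/- libraries, without overlap.

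Few of the annotated small RNAs had reads, and the share that did differed by where they lie in the annotation. Of the 2943 genes, 502 (17.1%) had at least 1 read and 362 of these fell short of 10. At least 1 read was counted for 250 of 815 genes inside an intron of another gene on the same strand (30.7%) and for 130 of 503 inside an intron on the opposite strand (25.8%). Between genes the share was 113 of 1406 (8.04%). In contrast, only 2 of 113 genes that overlap an exon of another gene (1.77%) and 7 of 106 that overlap only an exon of a retained-intron transcript (6.6%) had a read. How the counting treated reads shared by overlapping genes is not given in the sources used here, so a 0 there cannot be read as absence of the RNA.

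**Figure D1:**
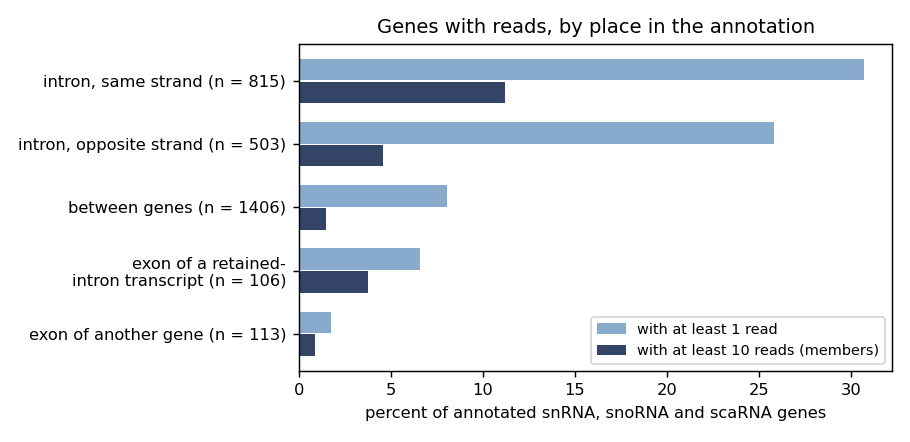
Share of the annotated snRNA, snoRNA and scaRNA genes with at least 1 read (light bars) and with at least 10 reads over the 6 libraries (dark bars, the members), in percent, by place in the annotation. Genes in introns had reads most often (30.7% and 25.8%) and genes in exons of other genes least often (1.77%).

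The named spliceosomal RNAs were nearly absent from the counts. Rnu6 (U6), Rnu5g (U5), Rnu7 (U7), Rnu11 (U11) and the U1 genes Rnu1b1, Rnu1b2 and Rnu1b6 had 0 reads in all libraries, while Rnu1a1 (U1) had 8, Rnu12 (U12) 7 and Rnu2-10 (U2) 6 over all 6 libraries, so none was a member. Snora73a and Snora73b, which lie in exons of another gene, and Snord118 (U8) had 0 reads, and Snord13 had 6. Every 50-base stretch of Rnu6 also occurs in other annotated genes, 167 of them, whereas Rnu7, Rnu11, Snora73a and Snora73b overlap an exon. Of the 497 genes whose every 50-base stretch recurs in another gene, 24 (4.83%) had a read. A gene overlapping the same place counted as another gene, so the 497 include genes in exons such as Rnu7. The share was 104 of 474 (21.9%) among genes with some but not all stretches recurring. It was 374 of 1969 (19.0%) among those with no recurring stretch. Among the members, 104 had no such stretch, 27 had some, and 9 were shared throughout and are uncertain, including Gm23849, 100% identical to Rnu2-10, and Gm22068, 100% identical to Rnu1a1.

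Most member reads were from snoRNAs, spread over many members. The 83 snoRNA members took 69.0% of the 5953 member reads, the 49 snRNAs 26.8% and the 8 scaRNAs 4.2%. The median member had 23 reads, and 35 members reached 50, while the 3 with the most reads held 18.8% of all member reads. Just inside the rule, 12 members had exactly 10 reads (among them Scarna13, Snora23, Snora47, Snord17 and Snord42b), and just outside it 7 genes had 9.

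Snord104, a box C/D snoRNA that guides methylation of ribosomal RNA, had the most reads. It lies between annotated genes at chr11:106500993-106501062 on the plus strand (GRCm38), 1085 bases from Tex2, and its reads were 53, 76 and 107 in WT and 29, 119 and 35 in Trpm2-/- mice. The highest and the lowest library were both Trpm2-/-, so the groups overlapped fully (log2 fold change −0.29 ± 0.548 (SE), adjusted p = 0.775, edgeR). Per length, it was also the most abundant member, at a mean of 55.9 FPKM over the 6 libraries.

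Snora31, an H/ACA snoRNA in an intron of Tpt1, had 54, 78 and 63 reads in WT and 49, 72 and 80 in Trpm2-/- libraries. Its level did not differ beyond the spread between mice (log2 fold change 0.08 ± 0.311, adjusted p = 0.9, edgeR). Snora20, an H/ACA snoRNA in an intron of the chaperonin gene Tcp1, had 51, 36 and 28 reads in WT and 79, 43 and 68 in Trpm2-/- libraries. Only KO2 lay within the WT range, and the difference did not pass the adjusted threshold (0.74 ± 0.344, adjusted p = 0.192, edgeR). Snord72, a C/D snoRNA in an intron of the ribosomal protein gene Rpl37, had 13, 26 and 18 reads against 17, 16 and 19, a difference well within the spread (−0.11 ± 0.417).

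The sequences of these leading snoRNAs, from the GENCODE transcripts on GRCm38, carry the boxes that define their classes and are shown for that reason. Capitals mark the C box TGATGA within the first 20 bases and the D box CTGA within the last 15 for C/D snoRNAs, and the ACA within the last 8 bases for H/ACA snoRNAs. Snord72 has no exact C box in that window.
Snord104 (chr11:106500993-106501062, plus strand): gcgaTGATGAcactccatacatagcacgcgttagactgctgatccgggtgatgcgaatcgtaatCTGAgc
Snord72 (chr15:5118404-5118484, plus strand): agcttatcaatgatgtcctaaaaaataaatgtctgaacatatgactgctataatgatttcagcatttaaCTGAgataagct
Snora31 (chr14:75847905-75848034, plus strand): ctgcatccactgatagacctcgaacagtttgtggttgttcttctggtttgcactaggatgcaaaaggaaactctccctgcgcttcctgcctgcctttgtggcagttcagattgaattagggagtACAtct
Snora20 (chr17:12922790-12922917, plus strand): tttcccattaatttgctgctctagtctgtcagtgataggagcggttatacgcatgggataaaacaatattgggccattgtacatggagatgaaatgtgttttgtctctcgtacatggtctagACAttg

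By these boxes, searched on the RNA strand, 29 snoRNA members were C/D-like (D box and no ACA), 40 were H/ACA-like (ACA and no D box) and 14 had both or neither. Of 33 snoRNA members whose deposited description gives the class, 17 of 20 described as C/D and 12 of 13 described as H/ACA were sorted alike, and the other 4 were left unsorted. A D box in the last 15 bases was held by 41.0% of the snoRNA members and 31.4% of all annotated snoRNAs, an ACA in the last 8 by 54.2% and 46.8%, and the C box by 25.3% and 21.7%. The C/D-like members had a median length of 79 bases and the H/ACA-like members 134. GC content was near that of the annotated class, with medians of 47.7% against 45.3% for snoRNAs and 43.0% against 42.1% for snRNAs.

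The other members among the 20 with the most reads spanned both classes, and most did not separate the groups. Gm22270, an H/ACA-like snoRNA in an intron of Rpl5, had 38, 15 and 31 reads in WT and 15, 38 and 26 in Trpm2-/- libraries (log2 fold change −0.03 ± 0.485). Snora57, on the strand opposite to Lbhd1, had 21, 17 and 27 against 13, 16 and 39 reads, with the highest and lowest library both Trpm2-/-. Gm24119 (intron of the phosphate carrier Slc25a3), AF357399 (Rps16), Gm25835 (the helicase gene Eif4a1) and Snora17 (between genes) had log2 fold changes from −0.31 to 0.15. Gm22748, an H/ACA-like snoRNA in an intron of Odc1, the gene of ornithine decarboxylase, had 8, 11 and 3 reads in WT and 10, 18 and 25 in Trpm2-/- libraries. Its fold change was the highest of the members that passed the expression filter, with 1 library inside the WT range and no call in the main test (1.28 ± 0.581, adjusted p = 0.182, edgeR).

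**Figure D2:**
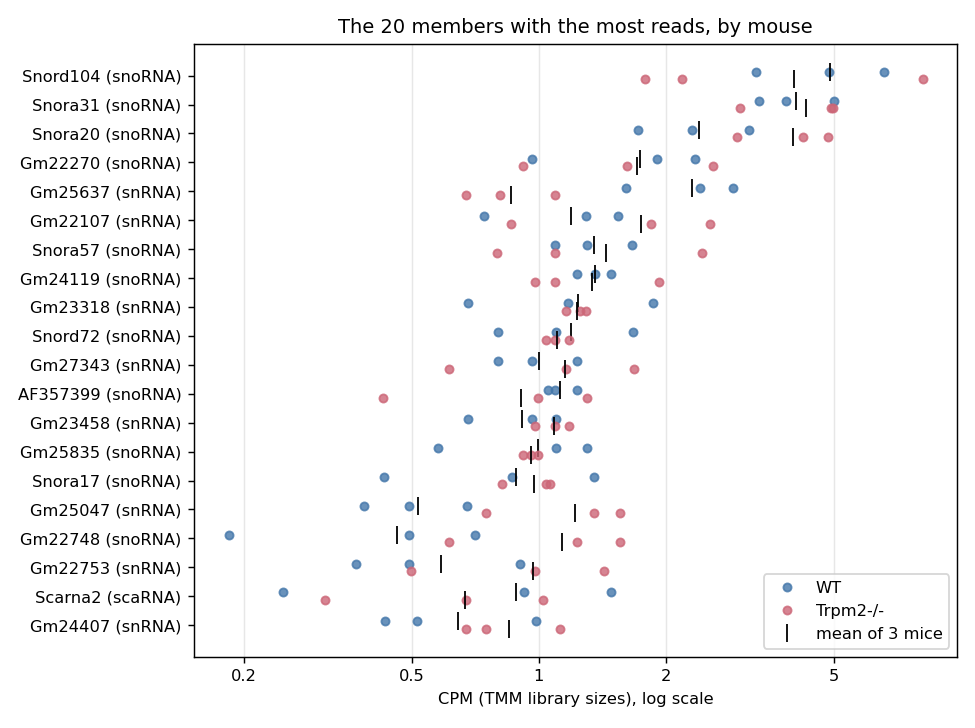
CPM of the 20 members with the most reads in each of the 3 WT (blue) and 3 Trpm2-/- (red) libraries on a log axis, with black ticks at the group means. The groups separate for Gm25637, at 1.61 to 2.88 CPM in WT and 0.673 to 1.09 in Trpm2-/-, and for Gm25047, at 0.386 to 0.675 and 0.751 to 1.56.

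In the test across all genes, 2 snRNA members were called, in opposite directions. The edgeR quasi-likelihood test took 15816 genes past its default expression filter, and 31 of the 140 members were among them (21 snoRNAs, 9 snRNAs and 1 scaRNA). With the threshold of the methods of the study, a log2 fold change beyond 1 and an unadjusted p under 0.05, 1 member was higher in Trpm2-/- kidneys, beside 3.5% of all genes tested, and 1 was lower, beside 4.1% of all genes. At an adjusted p under 0.05, 1 member passed, beside 12.0% of all genes. These shares are near or below the background. The median log2 fold change was 0.09 over the 31 members and 0.02 over all genes tested, with 17 members above 0 and 14 below.

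Gm25637, a diverged U6 copy on chromosome 4, fell in Trpm2-/- kidneys. It had 39, 25 and 47 reads in WT and 11, 16 and 13 in Trpm2-/- libraries, or 2.30 ± 0.645 CPM (SD, n = 3) against 0.858 ± 0.214 CPM. Every Trpm2-/- library was below every WT library (log2 fold change −1.42 ± 0.404 (SE), adjusted p = 0.0498, edgeR). The adjusted p lies at the edge of the threshold, and it ranged from 0.0371 to 0.311 over the alternatives.

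Gm25047, another diverged U6 copy, on the X chromosome, was higher in Trpm2-/- kidneys by the unadjusted rule. It had 8, 6 and 11 reads in WT and 22, 11 and 25 in Trpm2-/- libraries, or 0.518 ± 0.146 CPM (SD, n = 3) against 1.22 ± 0.418 CPM, and KO2 exceeded the highest WT library only narrowly. The change failed correction (log2 fold change 1.22 ± 0.477, adjusted p = 0.127, edgeR). Without KO4 it was 1.02 and the call was lost, as it was without WT1 (1.18), WT2 (1.05) or KO1 (1.15).

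Both lie beside, not inside, a gene that moved the same way. A shared sign did not hold for the members between genes in general. It held for 11 of 21 members and their nearest tested gene, and for 4 of the 7 with at least 50 reads. Member and neighbour log2 fold changes had Pearson's r = 0.20 and Spearman's rho = 0.19 across the 21. Across the 7, which include both called copies, these were 0.84 and 0.63. Genes are not independent replicates, so these values are descriptions only. Gm25637 lies 2081 bases before the 5′ end of Aqp7 on the opposite strand. Aqp7, an aquaglyceroporin of the proximal tubule, fell from 42.4 ± 2.03 to 23.1 ± 3.20 CPM (log2 fold change −0.87 ± 0.142, adjusted p = 0.00577, edgeR). Gm25047 lies 1558 bases past the 3′ end of Lonrf3 on the same strand, and Lonrf3 rose from 7.60 ± 0.490 to 12.6 ± 2.13 CPM (0.73 ± 0.204, adjusted p = 0.0483, edgeR). Whether reads of the neighbouring transcription units enter the counts of these copies was not tested.

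The sequences of the 2 called copies are shown, since they show how far the counted RNAs had diverged from each other. Capitals mark ACAGAG, the motif of U6 that pairs with the start of the intron in the spliceosome. Gm25637 and Gm25047 were each 80.4% identical to Rnu6 in a global alignment and 74.8% to each other, while Gm22753 was 91.6% identical to Rnu6.
Gm25637 (chr4:41050220-41050326, plus strand): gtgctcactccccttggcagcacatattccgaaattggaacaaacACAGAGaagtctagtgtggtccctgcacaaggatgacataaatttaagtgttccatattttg
Gm25047 (chrX:36363899-36364002, plus strand): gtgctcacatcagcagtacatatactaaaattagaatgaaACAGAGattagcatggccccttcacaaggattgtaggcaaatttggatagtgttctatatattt

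Most snRNA members were such copies. With a minimum identity of 70% to a named snRNA, 28 of the 49 were nearest to Rnu6 (71.0% to 99.1%), 5 to Rnu1a1, 4 to Rnu2-10 and 2 to Rnu7, and 10 reached the minimum with none. ACAGAG occurred in 21 of the 28 U6-like members and in 612 of 1383 annotated snRNAs (44.3%). The 28 were picked for likeness to Rnu6 and the 1383 were not, so these are not like sets. The Sm site ATTTTTG, the ring-binding motif of most snRNAs other than U6, occurred in 12.2% of the snRNA members and 3.33% of all annotated snRNAs. Both motifs were searched on the RNA strand only. The 10 without a match include Gm24407 and Gm24265, which are 98.6% identical to each other. Summed over the U6-like members, the level was 8.08 to 10.3 CPM in WT and 8.63 to 13.5 CPM in Trpm2-/- libraries, and the groups overlapped.

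Of the other snRNA members among the 20 with the most reads, none separated the groups. Gm22107, a U6-like copy in an intron of Myh9, had 12, 24 and 21 reads in WT and 14, 27 and 41 in Trpm2-/- libraries (log2 fold change 0.55 ± 0.488). Gm23318, a U6-like copy in an intron of the kinase gene Mtor, had 11, 29 and 19 against 21, 17 and 20 reads (0.00 ± 0.448). The U7-like Gm27343, the U1-like Gm23458 (intron of Bcl7a), Gm22753 (opposite to the deubiquitinase gene Usp34) and Gm24407 had log2 fold changes of 0.20, 0.24, 0.72 and 0.40, none past the threshold.

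**Figure D3:**
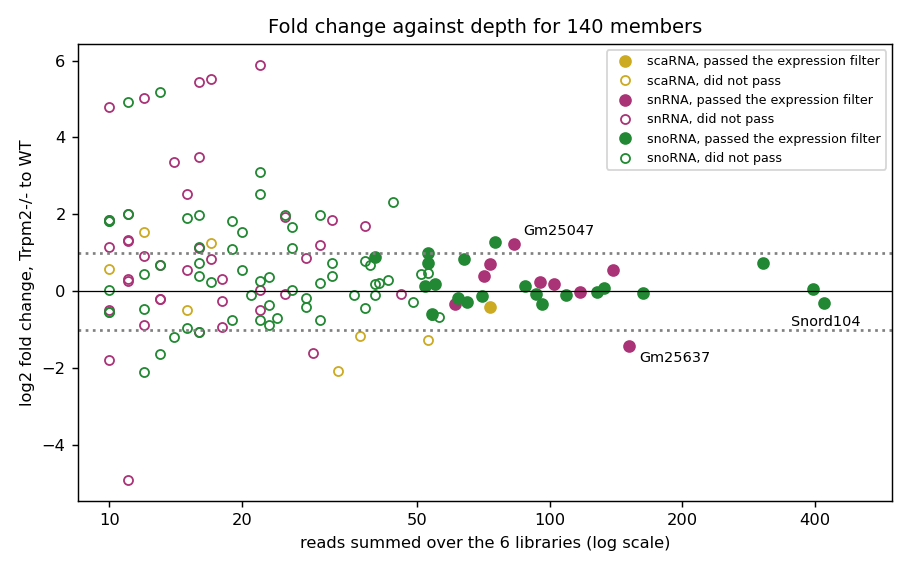
Log2 fold change, Trpm2-/- to WT, of each of the 140 members against its reads summed over the 6 libraries (log axis), from the fit of all genes with at least 10 reads. Filled points passed the expression filter and dotted lines mark a log2 fold change of 1 and −1. Log2 fold changes beyond 2 in either direction occur only below 50 reads.

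All 140 members could be tested when the filter was set at 10 reads over the 6 libraries, as the rule itself sets it. In that fit of 20830 genes, at the unadjusted threshold, 13 of the 140 members were called higher, a larger share than the 4.17% of all genes. Another 2 were called lower, a smaller share than the 3.86% of all genes. At an adjusted p under 0.05 the fit called 0 members, beside 8.48% of all genes, and 15 members had an unadjusted p under 0.05 in edgeR. By biotype, 7 snRNAs and 6 snoRNAs were called higher and 2 snRNAs lower. Without overlap between the groups, 12 members were higher in every Trpm2-/- library, beside 15.2% of all genes, and 6 were lower in every one, beside 14.0%, shares below the background. The median log2 fold change was 0.27 over the members and 0.04 over all genes, and 86 members lay above 0 and 54 below.

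Several of the calls rest on genes with no WT read, and on KO4. These members are named after their values were seen. Gm22301, a U6-like copy opposite to Pip5k1a, had 0 reads in each WT library and 4, 3 and 15 in Trpm2-/- libraries. With 3 reads allowed over the WT group, this was a 7.49-fold difference. Gm24261 had 0 in WT and 2, 1 and 14 reads (5.79-fold on the same basis). The U2-like Gm26020 had 1, 2 and 13 (5.45-fold) and Gm26393 had 1, 0 and 11 (4.09-fold), both with 0 in WT. KO4 thus held most of their reads. Snora21, an H/ACA snoRNA in an intron of Rpl23, had 2, 4 and 7 reads and Gm22888, in an intron of Ubap2, 7, 1 and 3, both against 0 in WT. Gm25939 also had 0 in WT, and 7 of its 10 reads were in KO4. The remaining members called higher, Gm22478, Gm23969, Gm24501, Gm24616, Gm25945 and Gm25047, did have WT reads. Among them, Gm22478 had 3, 3 and 1 reads in WT and 16, 2 and 19 in Trpm2-/- libraries, with overlap. On the other side, Gm25184 had 9, 1 and 1 reads in WT and 0 in each Trpm2-/- library. A gene with 0 reads in 1 group became a member only through the other, so these folds were partly set by the rule. The folds pool the reads of 3 mice and allow for counting error in WT only. They are therefore not lower limits for a difference between the genotypes.

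The summed level of each biotype overlapped between the groups. The snoRNA members summed to 41.3, 38.8 and 39.9 CPM in WT and 36.5, 50.6 and 52.5 CPM in Trpm2-/- libraries (means 40 ± 1.23 and 46.5 ± 8.71, SD, n = 3). KO1 was below and KO2 and KO4 above all WT libraries. The snRNA members summed to 12.6, 14.1 and 16.9 against 15.2, 18.3 and 23.7 CPM, with KO1 inside the WT range, a log2 ratio of 0.39. The H/ACA-like snoRNAs had a ratio of means of 1.25 and the C/D-like snoRNAs 1.02, and both classes overlapped.

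The scaRNA members were the only biotype with a lower mean in Trpm2-/- kidneys, at 1.79, 3.41 and 4.42 CPM in WT and 1.59, 3.48 and 1.18 CPM in Trpm2-/- libraries, again with overlap. The log2 ratio of −0.62 lay between −1.21 and −0.32 when 1 mouse was left out. Scarna2 had 4, 23 and 15 reads against 11, 15 and 5, and it alone passed the expression filter (log2 fold change −0.40 ± 0.666, adjusted p = 0.746, edgeR). Gm25492, in an intron of Bud23, had 8, 10 and 8 reads in WT and 1, 6 and 4 in Trpm2-/- libraries, without overlap. Gm22009, in an intron of the importin gene Kpna4, had 0, 14 and 13 against 1, 4 and 1 reads. Gm23119, 497 bases from Acaa2, had 16, 4 and 18 against 3, 7 and 5 reads. Acaa2, a mitochondrial enzyme of fatty acid oxidation, fell (log2 fold change −0.99 ± 0.137, adjusted p = 0.00338, edgeR), whereas Scarna17, 728 bases from the same gene, had 0, 0 and 3 against 2, 7 and 0 reads. Gm24644 (intron of Fbxo3), Gm22442 (intron of the chromatin remodeller gene Chd3) and Scarna13 (intron of Snhg10) had 17, 15 and 10 reads in all.

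Sorted by place in the annotation, a grouping chosen after the values were seen, the members in introns on the opposite strand stood apart. These 23 members summed to 3.89, 3.28 and 4.72 CPM in WT and 7.41, 6.01 and 11.5 CPM in Trpm2-/- libraries, without overlap and with a ratio of means of 2.10. The 18 snRNAs among them summed to 2.04, 1.93 and 2.70 against 4.71, 4.37 and 6.97 CPM (ratio 2.41). Without the 4 that had no WT read, whose reads were 79.1% from KO4, the other 14 summed to 2.04, 1.93 and 2.70 against 4.22, 3.96 and 3.67 CPM (ratio 1.78). The snRNA members at other places had a ratio of 1.11 and overlapped. The 91 members in introns on the same strand summed to 40.5, 40.3 and 39.3 against 37.2, 49.0 and 54.5 CPM, and the 21 between genes to 10.1, 12.1 and 16.8 against 8.26, 16.5 and 10.8 CPM, both with overlap.

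**Figure D4:**
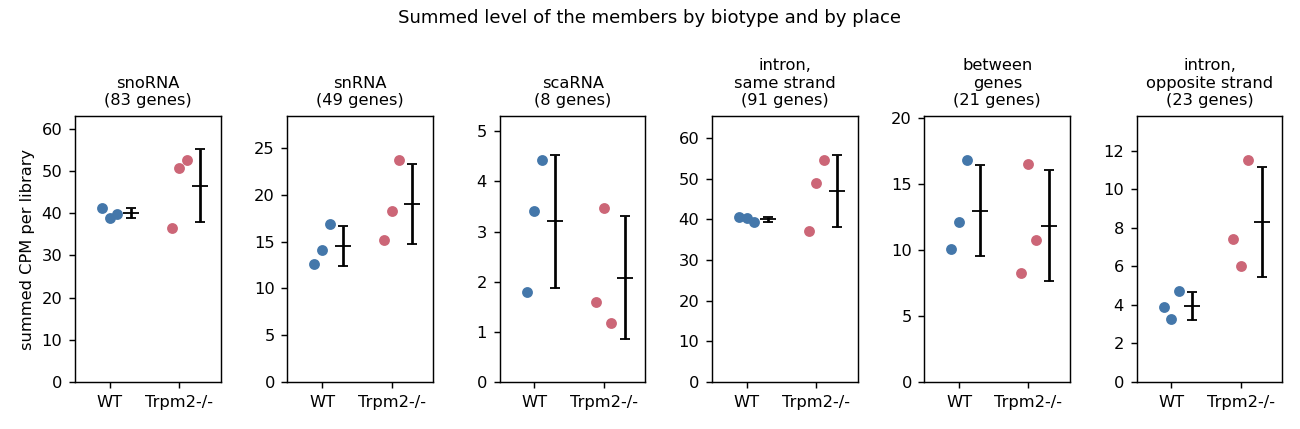
Summed CPM per library for the members of each biotype (left 3 panels) and at each of the 3 main places in the annotation (right 3 panels), WT in blue and Trpm2-/- in red, with the mean and SD of 3 mice beside the points and each axis starting at 0. Only the members in introns on the opposite strand show no overlap, at 3.28 to 4.72 CPM in WT and 6.01 to 11.5 CPM in Trpm2-/-.

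Other low-level signal, in introns and elsewhere, moved with this result, and its part in the result was not tested. The 2803 genes of the same biotypes with under 10 reads summed to 7.71 to 10.3 CPM in WT and 13.6 to 15 CPM in Trpm2-/- libraries, a ratio of 1.64 without overlap. They lie at all places, and 92 of the 362 with a read were between genes. The 320 sense-intronic transcripts in the table summed to 104 to 115 against 126 to 155 CPM, a ratio of 1.23 without overlap. By depth, over members at all places, the 105 under 50 reads had a ratio of 1.42 without overlap and the 35 with at least 50 reads 1.05 with overlap. Of the 23 genes on the other strand, 13 lay above 0 and 10 below, with a median log2 fold change of 0.02, and 15 had the sign of their member. At an adjusted p under 0.05 in edgeR, 5 rose and 3 fell, or 34.8% beside 12.0% of all genes. This share was not particular to the opposite strand. Of the nearest tested genes of the members between genes, 6 of 19 (31.6%) passed the same threshold. Opposite the members with no WT read, Atrx rose (0.84 ± 0.143, adjusted p = 0.00673, edgeR) and Marveld2 rose (0.58 ± 0.140, adjusted p = 0.0287, edgeR), while Pip5k1a (0.48 ± 0.140, adjusted p = 0.0533, edgeR) and Morc2a (0.23 ± 0.129, adjusted p = 0.277, edgeR) did not pass. Ndufv2, Fbxo7 and Arsg fell, although their members Gm23264, Gm24430 and Gm22378 had log2 fold changes above 0. The counting is not stated to use strand, so reads of these genes and of the members cannot be told apart.

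Host genes were compared with their members because most snoRNAs are made from host introns. The 91 members on the same strand lay in 77 hosts, 69 of them protein-coding, and 13 hosts held 2 or more members. Ribosomal protein genes, 14 in all, held 22 of the members. Of the 75 hosts tested, 2 rose at an adjusted p under 0.05 in edgeR (Khdc4, host of Gm25945, and Srcap, host of Snora30) and 1 fell (Rdm1), or 4.0% beside 12.0% of all genes, and the median over hosts of the log2 fold change was 0.00. Across the 89 members with a tested host, member and host log2 fold changes had Pearson's r = 0.27 and Spearman's rho = 0.29, and across the 26 with at least 50 reads 0.43 and 0.56. These are descriptions across genes measured in the same 6 libraries, and genes are not independent replicates.

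Single pairs show both patterns. Gm22107 and its host Myh9, the non-muscle myosin heavy chain gene, had log2 fold changes of 0.55 and 0.54 (host adjusted p = 0.083, edgeR). Gm23849, the U2-identical copy, had 4, 15 and 15 reads against 3, 6 and 18, while its host Rdm1, a DNA repair gene, fell (−0.74 ± 0.195, adjusted p = 0.038, edgeR). Gm22748 and Odc1 had 1.27 and 0.02 in the fit of all members. In introns of ribosomal protein genes, which encode proteins of the same ribosome that snoRNAs serve, the 22 members gave overlapping sums in the 2 groups.

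Per length, members were mostly far below their hosts. The median member had 10.2% of the FPKM of its host, and 10 of 89 were above it. Snora31 was at 28.3 FPKM beside 991 FPKM for Tpt1, a highly expressed gene of translation and growth, and Snord72 at 12.5 beside 152 FPKM for Rpl37. Snora20 reached 22.0 FPKM beside 33.3 for Tcp1, and Gm27343 15 beside 1.68 FPKM for its host 6820408C15Rik. FPKM of RNAs shorter than a sequenced fragment depends on how the counting placed fragments, which is not given in the sources used here.

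**Figure D5:**
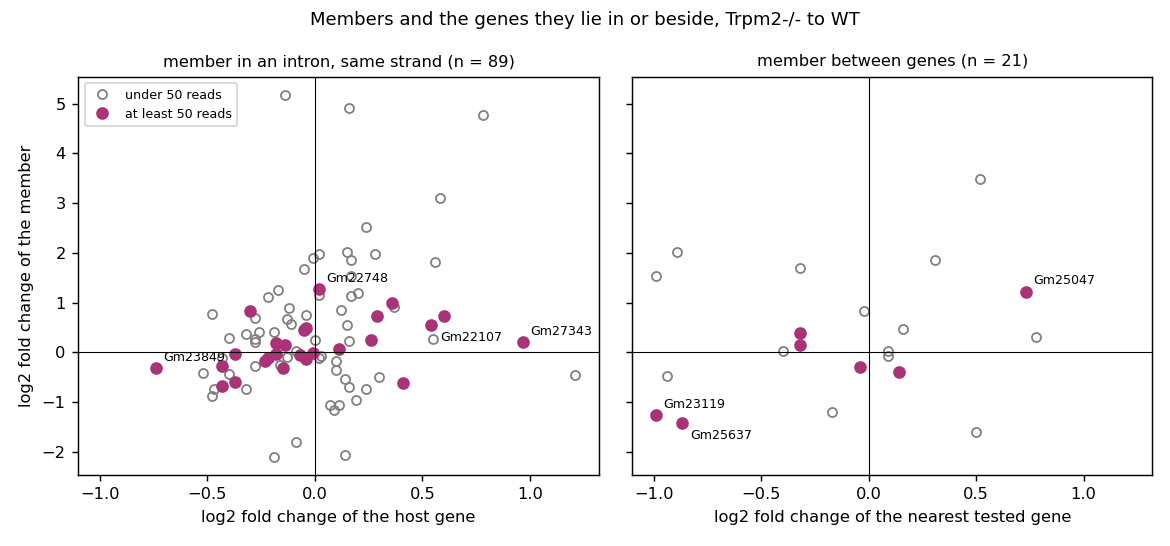
Log2 fold change (Trpm2-/- to WT) of each member against that of its host (left, 89 same-strand intronic members) or of the nearest tested gene (right, 21 members between genes). Filled points have at least 50 reads over the 6 libraries, where left-hand points spread less, and on the right 11 of 21 members, Gm25637, Gm23119 and Gm25047 among them, have the sign of their neighbouring gene.

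Among the proteins that bind and build these particles, few passed the test. Of 10 box C/D particle genes tested, 0 passed at an adjusted p under 0.05 in edgeR or DESeq2, and 0 had an unadjusted p under 0.05. Of 6 box H/ACA genes, 1 fell: Nop10, a core protein of these particles and of telomerase, went from 132 ± 19.8 to 85.0 ± 13.0 CPM (log2 fold change −0.64 ± 0.162, adjusted p = 0.034, edgeR). Of the Sm and LSm ring proteins 0 of 18 passed in edgeR and 0 in DESeq2 (2 had an unadjusted p under 0.05 in edgeR), and of the Cajal body and SMN genes 0 of 13 in either tool (0 unadjusted). Of the spliceosomal particle proteins 0 of 29 passed in edgeR and 1 in DESeq2 (8 unadjusted), and of the polymerase I and ribosome assembly factors 0 of 31 and 1 (5 unadjusted). The medians of these lists lay between −0.11 and 0.05, beside 0.02 over all genes.

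Of 26 genes tested for the making of snRNAs, 3 rose and 0 fell, a share of 11.5% beside 12.0% of all genes. Ice1, a subunit of the little elongation complex that serves snRNA transcription, went from 32.7 ± 3.63 to 58.9 ± 4.55 CPM (log2 fold change 0.85 ± 0.135, adjusted p = 0.00533, edgeR). Snapc3, a subunit of the complex that binds snRNA promoters, rose by 0.79 ± 0.167 (adjusted p = 0.0171, edgeR), and Zfp143, an activator of the same promoters, by 0.62 ± 0.151 (adjusted p = 0.03, edgeR). The list median was 0.02, as over all genes.

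Noncoding snoRNA hosts and other untailed RNAs were counted in the same way. Of 18 noncoding hosts tested, 0 passed at an adjusted p under 0.05 in edgeR and 2 in DESeq2 (3 had an unadjusted p under 0.05 in edgeR), and the median log2 fold change was −0.14. Meg3, which neighbours a large snoRNA cluster, was called higher by the unadjusted rule, with 9, 2 and 8 reads in WT and 49, 12 and 25 in Trpm2-/- libraries. Rn7sk, the RNA that restrains the elongation factor P-TEFb, had 194, 291 and 288 reads in WT and 303, 729 and 245 in Trpm2-/- libraries, with KO2 far above the rest. The RNase MRP RNA Rmrp had 0 reads. Of the 70 genes named as histones, 18 were tested and 2 fell, Hist1h1c (−0.85 ± 0.127, adjusted p = 0.00417, edgeR) and Hist1h2bc (−0.65 ± 0.160, adjusted p = 0.0307, edgeR). Summed, they were at 344 to 401 CPM in WT and 215 to 263 CPM in Trpm2-/- libraries, without overlap, but those 2 genes carried the difference. The other 68 summed to 55.1 to 67.9 CPM in WT and 50.7 to 60.2 CPM in Trpm2-/- libraries, with overlap.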

How the data were processed

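Gene expression was measured by RNA-sequencing of total RNA from kidney tissue of 6 mice. The authors deposited raw read counts and FPKM per gene for each library. The labels name HISAT2, StringTie and mm9, but the coordinates of all 140 members equal those of GENCODE release 21 on GRCm38, so GRCm38 is given here. The counter, its strand setting and its treatment of multi-mapped or overlapping reads are not given in the sources used here, nor is poly(A) selection. Deposited counts were tested with edgeR 4.0.16 (R 4.3.3; TMM, filterByExpr, quasi-likelihood, two-sided, Benjamini-Hochberg over all genes tested), with DESeq2 1.42.0 as an alternative. The deposited FPKM were used only for levels per length. CPM use TMM library sizes, sums get no test, and SE is the log2 fold change over the root of F. The edgeR and DESeq2 fits were tested on simulated counts. Depth was 14053307 to 17150089 counts per library.

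The members and lists were chosen with earlier results of these data known. Named are the 20 members with the most reads that passed the filter, the leading 5 of each biotype, every scaRNA, called members, those nearest the read threshold, hosts, and list genes at an adjusted p under 0.05 (at most 5 a list). A host is a gene whose span holds the member on the same strand. Alternatives were other scalings, filters, tests, a replicate block and each mouse left out. The sequence of 1 reference snRNA is not reported here.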

Additional observations from a re-analysis of the deposited data

How the results depend on the processing

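With deposited counts this low, most limits come from depth. Members called higher, 1 in the main test, numbered 2 with upper-quartile factors, 2 with library size only, 15 with no filter on low counts, 13 with a filter of 10 reads in all, 0 with the DESeq2 Wald test, and 0 to 3 when 1 mouse was left out. Members called lower, also 1, numbered 3 with no filter, 2 with 10 reads in all, and 1 to 2 with 1 mouse left out. At an adjusted p under 0.05, 1 member passed, and 0 did with upper-quartile factors, library size only or 10 reads in all, 4 with no filter, and 0 to 1 with 1 mouse left out. More members were tested with looser filters (140 against 31); for the other changes the cause was not tested. With library size only, the median log2 fold change of all genes moved from 0.02 to 0.12. Gm25637 stayed below 0 throughout, at −1.18 to −1.63, and Gm25047 above 0, at 1.02 to 1.47. Replicate numbers 1 and 2 occur in both groups, but same-numbered mice did not deviate together (r = 0.064 and −0.012 across genes). With the replicate block, 0 members were called higher, 0 lower and 0 at an adjusted p. Over all genes, the calls changed from 553 to 421 higher, from 649 to 695 lower and from 1902 to 1002 at an adjusted p. Summed log2 ratios ranged over all alternatives from 0.12 to 0.37 for snoRNAs, 0.20 to 0.57 for snRNAs and −1.21 to −0.32 for scaRNAs. The ratio of members in introns on the opposite strand, on the log2 scale, ran from 0.76 without KO4 to 1.26, alternatives added after seeing the data, and that of members between genes from −0.45 to 0.10. Groups of 3 are too small for a test of single outlying mice.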
